A study of Sus scrofa with 207 samples.

Results

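Heat shock chaperones and their cochaperones were followed across 207 muscle samples through 10 genes: HSPH1, BAG3, DNAJB4, HSPE1, HSP90AB1, HSP90AA1, HSPD1, HSPA8, HSPB1 and CRYAB. A probe set, the group of short probes that reads out a transcript on the array, was taken as a member where its only gene symbol in the array annotation was one of these names. This gave 19 of the 23935 probe sets tested and 10 of the 6765 genes with a probe set of their own. Commercial crossbred pigs labelled Pix(DLxDE), with a mean end weight of 110 kg, gave muscle at slaughter, and each sample was hybridised to 1 Affymetrix Porcine array. The animals formed a single group, with no control and no treatment. Sex, sire, day of slaughter and array batch are not in the labels used here. Each animal carried 2 measured traits, both from the longissimus muscle. Drip loss, the share of weight that hung meat loses as fluid, ranged from 1.45 to 10.82% with an SD of 2.22% (n = 207). Fat area over the muscle ranged from 8.1 to 26.7 cm2 with an SD of 3.15 cm2 (n = 199, since 8 animals had none). The 2 traits were nearly unrelated (Pearson r = -0.0945 over those 199 animals, given as a description).

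Molecular chaperones hold unfolded proteins, help them fold and pass damaged ones to degradation. The HSP70 machine works in cycles of ATP binding and release, fed by J-domain proteins and reset by nucleotide exchange factors, and it hands clients to HSP90. The chaperonin formed by HSPD1 and HSPE1 folds proteins inside mitochondria, and the small heat shock proteins hold aggregating proteins without using ATP. In muscle the small heat shock proteins and BAG3 guard the Z-disc and the filament system, and heat shock factor raises many of these genes together when proteins unfold. Bulk muscle was measured, so fewer cells of a type and less RNA per cell cannot be told apart.

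Skeletal muscle markers (CKM, DES and TTN, 3 of 5 measured) averaged between 13.2 and 13.8 on the log2 scale in every array, where the median probe set mean was 6.10. Red blood cell markers (3 of 4 measured) averaged 5.97 to 6.98 and T cell markers (4 of 4 measured) 4.83 to 5.98. In limma 1 of these 4, CCL5, rose with drip loss, and 0 of 3 red blood cell, 0 of 4 endothelial, 0 of 3 fibroblast and 0 of 2 macrophage markers passed for either trait, with at most 2 unadjusted p-values under 0.05 in a list. A set of 24 arrays resembled the rest less, with median correlations down to 0.944 where the typical array had 0.978. Drip loss averaged 4.20 ± 1.55% (SD) in those 24 animals and 5.53 ± 2.25% in the other animals. The titles number the animals, with 174 in a lower and 33 in a higher number series, here also cut into 10 blocks of 100 numbers. What the numbers stand for is not given.

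With each gene read by its brightest probe set, the exchange factor HSPH1 and the J-domain protein DNAJB4 varied most. HSPH1, which resets HSP70 after each cycle, ranged from 7.63 through a median of 9.64 to 11.82. The animal at the 90th percentile had 3.75 times the HSPH1 signal of the animal at the 10th. Its SD of 0.749 was at the 98.7th percentile among probe sets with a mean above the median, and that of DNAJB4 (0.618) at the 97.5th. DNAJB4, a J-domain protein that delivers clients to HSP70, ranged from 9.28 through 10.89 to 12.77. Between its 10th and 90th percentiles the signal differed 2.97-fold.

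HSPE1 and HSPA8 varied least among the main probe sets. HSPE1, the lid of the mitochondrial chaperonin, ranged from 11.68 through 12.35 to 12.89. The constitutive HSP70 member HSPA8 ranged from 12.44 through 13.25 to 13.73. Their SDs of 0.178 and 0.203 lay at the 9.13th and 20.6th percentiles, so most probe sets with a mean above the median varied more. HSPD1, the barrel of the same chaperonin, ranged from 9.64 through 10.66 to 11.44. The cytosolic HSP90 chaperones HSP90AB1, largely constitutive, and HSP90AA1, more inducible, ranged from 10.99 through 11.43 to 12.27 and from 11.53 through 12.30 to 13.26. HSP90AB1 had a tail to high values, with a skewness of 0.777, whereas HSPA8 had a tail to low ones, at -0.950. All HSP90AB1 values of 12.19 or more and all HSPA8 values of 12.69 or less came from the 24 arrays that resembled the rest less. Whether these tails belong to the animals or to the arrays was not tested.

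BAG3, a cochaperone that couples HSP70 to selective autophagy in muscle, ranged from 11.57 through 12.44 to 13.40. The small heat shock protein HSPB1 ranged from 11.61 through 12.87 to 13.42, and the small heat shock protein CRYAB from 12.65 through 13.48 to 13.97. HSPB1 and CRYAB were skewed to low values (-0.676 and -0.523), so the animals farthest from the median were those with the lowest signal. Even their lowest values, 11.61 and 12.65, were bright ones. No member probe set touched the value floor of 4 in any array. These levels are compared within a probe set only, since brightness also depends on the probes.

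**Figure D1:**
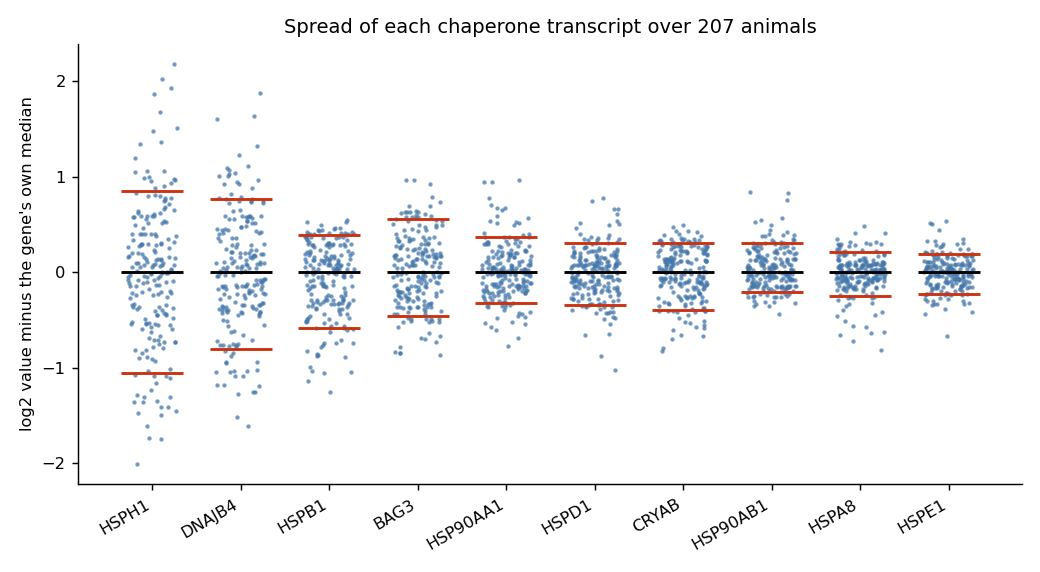
Log2 value of the main probe set of each gene in each of the 207 animals, minus that gene's median. Points are animals, the black bar is the median and the red bars are the 10th and 90th percentiles. HSPH1 and DNAJB4 spread widest, with SDs of 0.749 and 0.618, and HSPE1 least, with an SD of 0.178.

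Several genes had more than 1 probe set, and these did not always follow each other. The main probe set of a gene was the one with the highest mean, and 18 pairs of probe sets of the same gene were compared, with adjustment over those 18. The 2 BAG3 probe sets moved together closely (r = 0.832, Spearman rho = 0.838, adjusted permutation p = 3.0e-05 for r and 2.6e-05 for rho, r = 0.829 without the 2 most extreme animals). The 2 CRYAB probe sets did so less (r = 0.502, rho = 0.453, with the same adjusted p-values, and r = 0.497 without the 2 most extreme animals). The second CRYAB probe set, Ssc.19588.2.A1_at, shares its cluster number with Ssc.19588.1.S1_at, which the annotation gives to HSPB2, the gene next to CRYAB in the RefSeq table for Sscrofa11.1. Which of these transcripts it reads was not tested.

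For HSPA8 the main probe set, Ssc.16804.1.A1_at, was not followed by the others, whose medians were 5.55 to 7.09. Its r with Ssc.19203.2.S1_at was -0.194 (rho = -0.232, adjusted permutation p = 0.0110 for r and 0.00196 for rho, r = -0.200 without the 2 most extreme animals). With Ssc.19203.3.S1_at and Ssc.19203.1.A1_at it was -0.00485 and -0.0245 (rho = -0.0487 and -0.0728, adjusted p = 0.979 and 0.818 for r). Among the 5 HSP90AA1 probe sets r ranged from -0.0323 to 0.624. The HSPA8 and HSP90AA1 values below therefore describe 1 probe set each, Ssc.16804.1.A1_at and Ssc.12191.1.A2_at.

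The members moved together from animal to animal. Of 45 pairs of genes, 44 correlated positively, and 40 passed at an adjusted permutation p under 0.05. The median r was 0.50, against 0.00586 over all gene pairs and 0.0167 over pairs of genes with means above the median. An r above 0.5 was found in 22 pairs, or 48.9%, against 1.43% of all gene pairs and 2.50% of the brighter ones. The members were chosen with earlier results of these samples known, so this stands as a description. The median was 0.467 with the block means removed and 0.498 without the 24 low-correlation arrays. With the mean of all probe sets of each gene it was 0.355.

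BAG3, CRYAB and HSPB1, a cochaperone and 2 small heat shock proteins, were close to each other, as were HSPH1, BAG3 and CRYAB. BAG3 and CRYAB had r = 0.800 and rho = 0.797, with an adjusted permutation p of 1.22e-05 for r and 1.25e-05 for rho, the smallest that 100000 permutations could give after adjustment over the 45 pairs. Without the 2 most extreme animals r was 0.793, within blocks of title numbers it lay between 0.615 and 0.898, and in the lower and higher number series it was 0.798 and 0.727. HSPB1 and CRYAB had r = 0.783 (rho = 0.786, same adjusted p, 0.774 without the 2 most extreme animals, 0.662 to 0.888 within blocks). BAG3 and HSPB1 had r = 0.719 (rho = 0.713, same adjusted p, 0.713 without the 2 most extreme animals, 0.417 to 0.856 within blocks). All 3 pairs were thus positive in 10 of 10 blocks.

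HSPH1 sat at the centre of the group. Its mean r with the other 9 genes was 0.631, the highest of the 10, and its lowest was 0.426, with HSPE1. HSPH1 and BAG3 had r = 0.760 (rho = 0.756, adjusted permutation p = 1.22e-05 for r, 0.752 without the 2 most extreme animals, 0.571 to 0.865 within blocks). HSPH1 and HSP90AA1 had r = 0.733 (rho = 0.688, same adjusted p, 0.710 without the 2 most extreme animals, 0.641 to 0.843 within blocks). HSPH1 and HSPA8 had r = 0.718 (rho = 0.697, same adjusted p, 0.706 without the 2 most extreme animals, 0.576 to 0.975 within blocks).

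The mitochondrial chaperonin formed the other end. HSPD1 and HSPE1, neighbouring genes in the RefSeq table whose products build the same complex, had r = 0.576 (rho = 0.537, adjusted permutation p = 1.22e-05 for r, 0.575 without the 2 most extreme animals, 0.337 to 0.715 within blocks). HSPD1 followed HSP90AA1 (r = 0.671, rho = 0.599, same adjusted p, 0.659 without the 2 most extreme animals, 0.217 to 0.883 within blocks). It did not measurably follow HSPB1 (r = -0.00245, rho = -0.0340, adjusted p = 0.972 and 0.629, 0.0459 without the 2 most extreme animals, positive in 3 of 10 blocks). BAG3 with HSPD1 and BAG3 with HSPE1 missed the threshold too (r = 0.113 and 0.131, rho = 0.114 and 0.135, adjusted p = 0.109 and 0.0632 for r, 0.115 and 0.123 without the 2 most extreme animals). The other pairs that missed it were DNAJB4 with HSP90AB1 and with HSPE1 (r = 0.118 and 0.119, rho = 0.108 and 0.0775, adjusted p = 0.0945 and 0.0918 for r, 0.0869 and 0.0953 without the 2 most extreme animals). The distance of HSPD1 and HSPE1 from BAG3 and HSPB1 was smaller with the first 5 principal components of all probe sets removed. Then r was 0.361 for BAG3 with HSPD1, 0.341 for BAG3 with HSPE1 and 0.195 for HSPD1 with HSPB1. It was 0.595 for HSPD1 with HSPE1, and 0.0332 and 0.127 for DNAJB4 with HSP90AB1 and with HSPE1.

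A principal component analysis of the 10 genes, scaled to equal variance, was computed from the r values over all 207 animals, so it restates them. The first component held 54.0% of their variance, with loadings of the same sign for all 10 genes, from 0.230 for HSPE1 to 0.40 for HSPH1. The second held 17.7% and set HSPB1 (-0.403), BAG3 (-0.377) and CRYAB (-0.290) against HSPD1 (0.510) and HSPE1 (0.451).

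**Figure D2:**
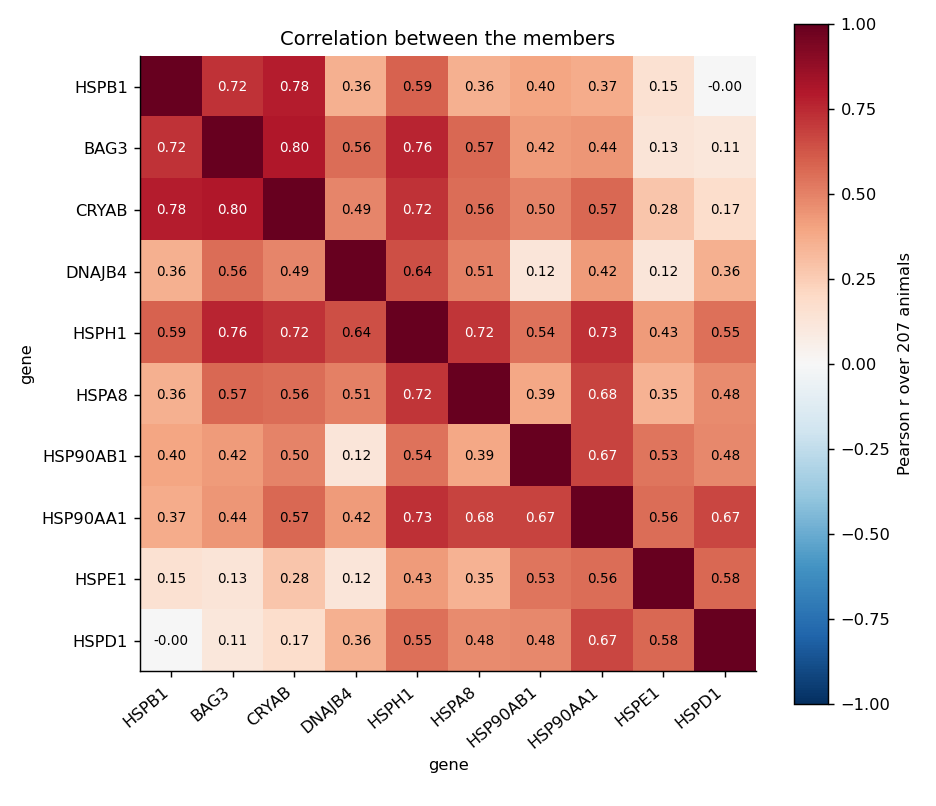
Pearson r between the main probe sets of each pair of the 10 genes over 207 animals, with genes ordered by their loading on the second principal component of the group. HSPB1, BAG3 and CRYAB form a block at 0.72 to 0.80 in the upper left, HSPD1 and HSPE1 stand at the lower right, and HSPD1 with HSPB1 is at 0.

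Other chaperones were prominent among the genes most like each member. Among 4874 candidate genes with means above the median, the 3 with the highest r were taken for each member, and since r chose them, these values are descriptions. DNAJA1, HSP70.2, HSPA4, HSPB8 and CCT4 were each taken for 3 members. For HSPH1 they were the J-domain protein DNAJA1 (r = 0.858, rho = 0.826), the inducible HSP70 gene HSP70.2 (0.786 and 0.781) and the J-domain protein DNAJA4 (0.699 and 0.681). DNAJA1 was also among the 3 closest to HSP90AA1 (0.729 and 0.685) and HSPA8 (0.715 and 0.670). The closest to CRYAB was HSP70.2 (0.739 and 0.708), followed by DNAJA4 and the small heat shock protein HSPB8. HSPB8, which forms a complex with BAG3 and HSP70, was second for BAG3 (0.759 and 0.758) and first for HSPB1 (0.705 and 0.701).

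HSP90AB1 stood closest to CCT4 (0.639 and 0.601) and CCT8 (0.625 and 0.551), subunits of the cytosolic chaperonin that folds actin and tubulin, and to IMPDH2, an enzyme of guanine nucleotide synthesis (0.606 and 0.549). HSPD1 stood closest to CACYBP (0.813 and 0.753), a protein that binds S100 proteins and ubiquitin ligases, to the HSP90 cochaperone PPID (0.791 and 0.751) and to HSPA4 (0.781 and 0.709), an exchange factor like HSPH1. HSPA4 was also closest to HSP90AA1 (0.769 and 0.723).

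For BAG3, DNAJB4 and HSPE1, as for HSPD1 and CRYAB, a gene outside the chaperone lists came first. For CRYAB it was the HSP70 gene HSP70.2, which is not in those lists. The gene closest to BAG3 was TRAFD1, a regulator of innate immune signalling (0.789 and 0.778), and TNFRSF12A, the receptor of the cytokine TWEAK, came next after HSPB8 (0.751 and 0.748). DNAJB4 stood closest to the cap-binding translation factor EIF4E (0.854 and 0.831), the chromatin protein KMT2E (0.811 and 0.807) and the heat shock factor HSF2 (0.793 and 0.783). With the first 5 principal components of all probe sets removed, these r values were 0.453, 0.407 and 0.273, and that of HSPH1 with DNAJA1 was 0.833. HSPE1 had the loosest partners, led by the membrane protein TMEM33 (0.591 and 0.565).

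With rising drip loss, BAG3 fell. Each trait was scaled to an SD of 1, so that a slope is the change in log2 value per SD, and adjusted p-values are those of limma with Benjamini-Hochberg adjustment over all 23935 probe sets. The slope of BAG3 on drip loss was -0.0991 ± 0.0256 (SE, n = 207, adjusted p = 0.0116), or 6.64% less signal per SD. By tertiles of drip loss BAG3 averaged 12.53 ± 0.405 (SD, n = 69) in the lowest, 12.53 ± 0.365 in the middle and 12.32 ± 0.338 in the highest. The values of the tertiles overlapped widely, from 11.57 to 13.40 in the lowest and from 11.59 to 13.00 in the highest, and only the highest tertile stood apart in its mean. The second BAG3 probe set had a slope of -0.0960 ± 0.0437 and did not pass (adjusted p = 0.195).

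BAG3 was the 1 member probe set of 19 that passed, and its gene was 1 of 10. Over all probe sets 4.61% passed in either direction and 2.67% with a falling level, so the share of members is not set apart by this count. HSPH1 had the steepest slope of the main probe sets, -0.150 ± 0.0506 (n = 207), and missed the threshold at an adjusted p of 0.0608. DNAJB4 was beside it at -0.125 ± 0.0418 (adjusted p = 0.0598). With 1 probe set per gene and adjustment over 6765 genes, all 3 passed in limma (adjusted p = 0.00845 for BAG3, 0.0470 for HSPH1 and 0.0465 for DNAJB4). More passed throughout in that setting, with 7.60% of all genes called.

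By tertiles of drip loss HSPH1 averaged 9.71 ± 0.830, 9.75 ± 0.727 and 9.39 ± 0.635 (SD, n = 69 each), and DNAJB4 averaged 11.01 ± 0.670, 10.95 ± 0.603 and 10.71 ± 0.541. As for BAG3, the lowest and middle tertiles were alike and the highest was lower. The lowest tertile also held the widest spread for these 3 genes. The 24 low-correlation arrays, whose animals averaged a lower drip loss, had wider spreads too. Their SDs were 1.07 against 0.699 in the other arrays for HSPH1, 0.903 against 0.573 for DNAJB4 and 0.444 against 0.374 for BAG3. Their part in the spread of the lowest tertile was not tested. The overlap was again wide, with HSPH1 between 7.90 and 10.70 in the highest tertile and between 7.89 and 11.82 in the lowest.

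The 10 main probe sets all had negative slopes on drip loss, with a median of -0.0402, whereas 38.99% of all genes had negative ones and their median was 0.00797. Of the 19 member probe sets, 16 were negative and 7 had an unadjusted p under 0.05, against 46.3% and 19.3% of all probe sets. The list was chosen knowing its direction in these samples, so these signs and shares stand as a description. HSP90AB1 had -0.0390 ± 0.0150 (adjusted p = 0.112), CRYAB -0.0414 ± 0.0185 (adjusted p = 0.187) and HSPB1 -0.0453 ± 0.0265 (adjusted p = 0.343). The slopes of HSPD1, HSP90AA1, HSPE1 and HSPA8 were closer to 0, at -0.0191, -0.0180, -0.00987 and -0.00604, with adjusted p-values from 0.629 to 0.869. Another HSP90AA1 probe set, Ssc.15662.1.S1_at, had a slope of the opposite sign, 0.0390 ± 0.0180 (adjusted p = 0.203).

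The BAG3 slope was negative in 9 of 10 blocks of title numbers, and those of HSPH1 and DNAJB4 in 8 of 10. With the blocks as a covariate the slope of BAG3 was -0.0743 ± 0.0237 and no longer passed (adjusted p = 0.116), and with the first 5 principal components it was -0.0208 ± 0.0188 (adjusted p = 0.850). Without the 24 low-correlation arrays, whose animals had lower drip loss, it was -0.0987 ± 0.0261 and passed (adjusted p = 0.0353), but 199 probe sets passed then, against 1103 in all arrays. With the mean of the adipocyte markers (3 of 5 measured, averaging 6.84 to 8.72 across arrays, 0 of 3 passing for either trait and 1 with an unadjusted p under 0.05 for drip loss) as a covariate, BAG3, HSPH1 and DNAJB4 all passed. Of all probe sets 5.40% passed then.

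**Figure D3:**
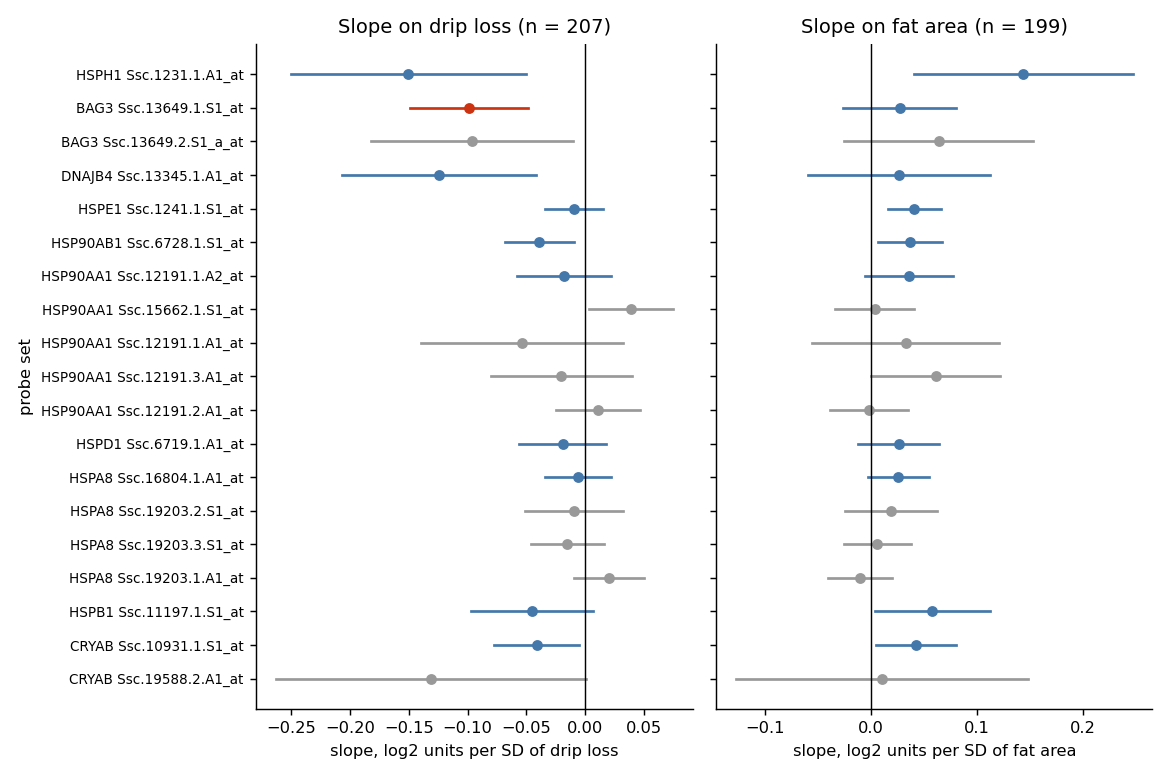
Slope of each of the 19 member probe sets on drip loss (left, n = 207) and fat area (right, n = 199) in log2 units per SD of the trait, with 95% confidence intervals from limma. Red marks an adjusted p under 0.05, blue the main probe set of a gene and grey the others. BAG3 at -0.0991 on drip loss is the 1 point in red.

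No member passed for fat area. The smallest adjusted p of the 19 probe sets was 0.297, for HSPE1, and 0.121% of all probe sets passed. At an unadjusted p under 0.05 there were 6 of the 19, against 7.07% of all probe sets. HSPE1 had a slope of 0.0409 ± 0.0126 (SE, n = 199), and its mean was 12.30 ± 0.192 (SD, n = 66) in the leanest tertile, 12.34 ± 0.156 (n = 66) in the middle and 12.39 ± 0.180 (n = 67) in the fattest. HSPH1 had 0.144 ± 0.0524 (adjusted p = 0.467), with means of 9.50 ± 0.746, 9.59 ± 0.795 and 9.76 ± 0.722. The ranges of the tertiles overlapped nearly throughout for both genes.

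The slopes on fat area were positive for 17 of 19 member probe sets and for all 10 main ones, with a median of 0.0362 against -0.00152 over all genes, of which 46.8% were positive. As for drip loss, the list was chosen knowing its direction, so these signs and the unadjusted count above stand as a description. HSP90AB1 had 0.0367 ± 0.0155 (adjusted p = 0.592), CRYAB 0.0425 ± 0.0191 (adjusted p = 0.614), HSPB1 0.0580 ± 0.0274 (adjusted p = 0.662) and HSP90AA1 0.0357 ± 0.0210 (adjusted p = 0.775). HSPD1, HSPA8, BAG3 and DNAJB4 lay between 0.0256 and 0.0271 with intervals that included 0. With the first 5 principal components as covariates HSP90AB1 passed, at 0.0513 and an adjusted p of 0.0319.

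All 10 main probe sets thus had a negative slope on drip loss and a positive one on fat area, as did 18.4% of all genes. The 10 genes move together, and the list was chosen knowing that it did this, so the 10 signs are not independent of each other or of the choice. In the lower number series all 10 kept both signs (n = 174). In the higher series the fat area slopes of DNAJB4, HSPE1, HSP90AB1, HSP90AA1 and HSPD1 were negative, from -0.0283 to -0.00242 (n = 25). There the drip loss slopes of HSP90AA1, HSPD1 and HSPA8 were positive, from 0.00878 to 0.0254 (n = 33). HSPA8 had a negative drip loss slope in 4 of 10 blocks, and BAG3 a positive fat area slope in 5. The difference between the slopes on the 2 traits was tested directly in a fit with both. HSPH1 passed, with a fat area slope 0.275 ± 0.0696 above its drip loss slope (SE, n = 199, adjusted p = 0.0393). Over all probe sets 0.347% passed, and 8 of the 19 member probe sets had an unadjusted p under 0.05, against 12.6% of all probe sets. In this fit HSPH1 had -0.145 for drip loss and 0.130 for fat area.

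HSP90AB1, BAG3 and CRYAB came next and did not pass, with differences of 0.0693 ± 0.0207, 0.117 ± 0.0355 and 0.0808 ± 0.0255 (adjusted p = 0.0902, 0.0942 and 0.114). The HSPH1 difference stayed between 0.161 and 0.277 under the alternatives in which it lost the call, with adjusted p-values from 0.0518 to 0.195. These were the number series, the blocks or 5 principal components as covariates, normal scores of the traits, leaving out the low-correlation arrays with or without the blocks, the 3' minus 5' signal of the control transcripts as a covariate, and omission of the 13 arrays without spike-in signal.

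**Figure D4:**
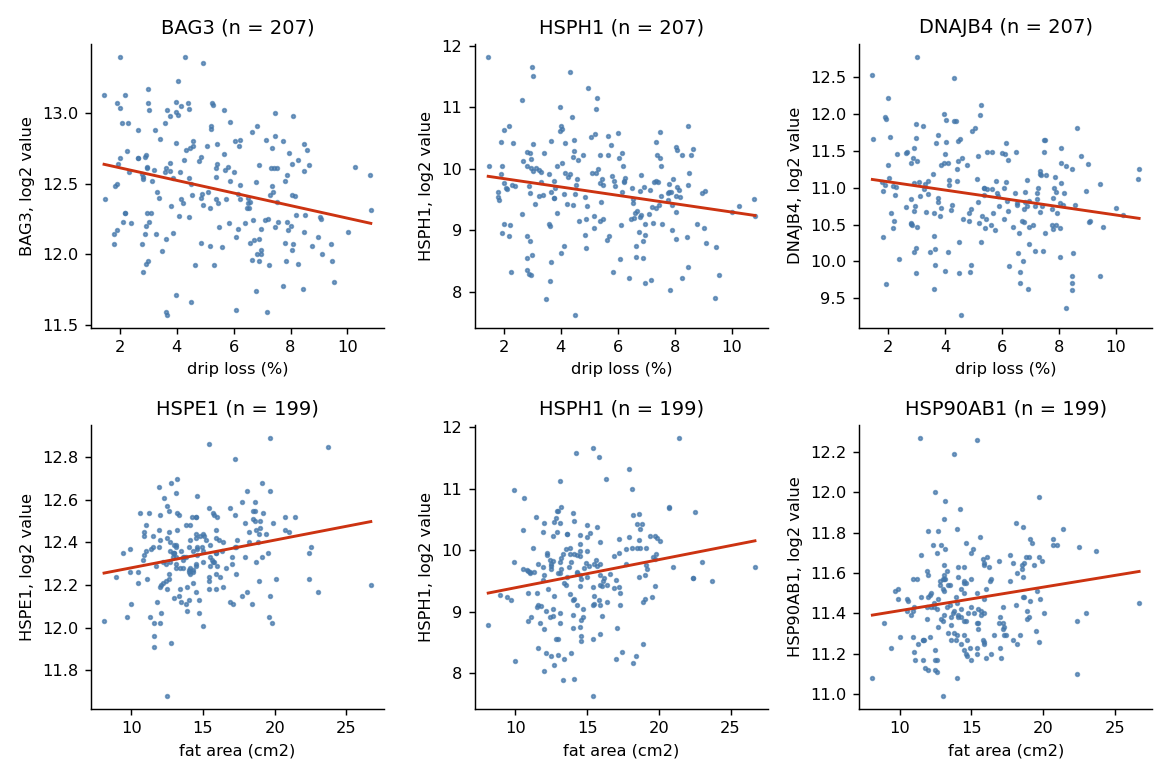
Log2 value of BAG3, HSPH1 and DNAJB4 against drip loss in percent (top, n = 207) and of HSPE1, HSPH1 and HSP90AB1 against fat area in cm2 (bottom, n = 199). Points are animals and lines are least squares fits. The lines fall with drip loss and rise with fat area, within a wide scatter of animals, and of the 6 slopes shown only that of BAG3 on drip loss passed.

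The members differed in level between the blocks of title numbers. The blocks held 26.5% of the variance of BAG3, 24.5% of that of HSPB1, 22.4% of that of HSPH1 and 21.8% of that of CRYAB, and 7.81% of that of HSPE1. The median over all genes was 9.20%, and 3.70% of genes had more than 20%. The animals numbered in the 300s had the lowest mean for each of these 4 genes: 12.16 ± 0.300 for BAG3, 12.48 ± 0.40 for HSPB1, 9.05 ± 0.601 for HSPH1 and 13.24 ± 0.246 for CRYAB (SD, n = 35). The highest block means were 12.72 ± 0.408 for BAG3 and 13.63 ± 0.228 for CRYAB (n = 16, the 1100s), 10.21 ± 0.735 for HSPH1 (n = 14, the 600s) and 13.06 ± 0.326 for HSPB1 (n = 21, the 200s). The blocks were compared after their values were seen, with no test, and what sets them apart was not tested. Drip loss itself had 8.78% of its variance between blocks.

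**Figure D5:**
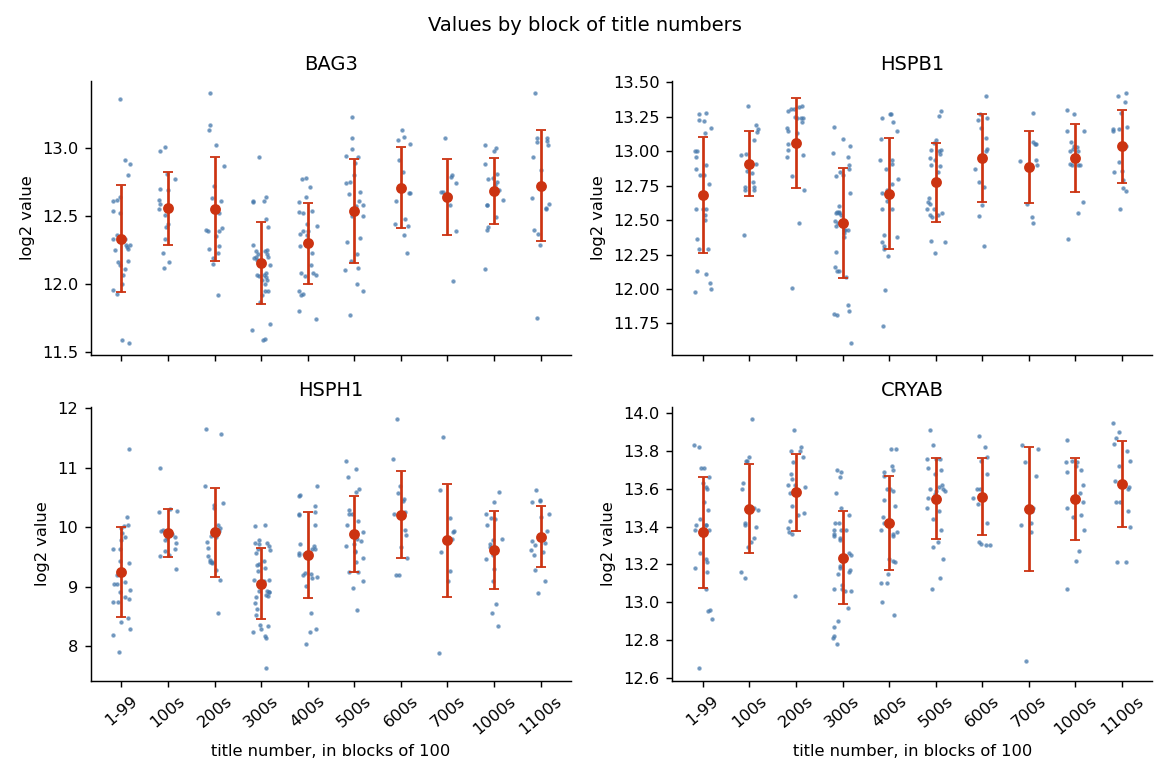
Log2 values of BAG3, HSPB1, HSPH1 and CRYAB by block of 100 title numbers. Small points are animals, and large points with bars are the block mean ± SD, for 10 to 35 animals a block. The 4 genes are lowest in the 300s, where BAG3 averages 12.16 against 12.72 in the 1100s.

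The 24 low-correlation arrays differed in mean for several members, with no test. HSPA8 averaged 13.02 ± 0.363 (SD) there and 13.26 ± 0.153 in the other arrays, whereas HSPB1 averaged 12.94 ± 0.371 and 12.77 ± 0.384. The mean of HSP90AB1 differed by 0.107, and those of HSP90AA1, HSPD1 and HSPE1 by -0.125, -0.109 and -0.0706. Those of HSPH1 and DNAJB4 differed by -0.085 and -0.086, against SDs of 0.699 and 0.573 in the other arrays. For BAG3 and CRYAB the means of the low-correlation arrays were higher by 0.0600 and 0.0203 only. Every member but HSPB1 had a larger SD in the low-correlation arrays, such as 0.463 against 0.235 for HSPD1. Along the first principal component of all probe sets, HSPD1 (r = 0.707) and DNAJB4 (r = 0.572) lay far out, while BAG3 (0.0999), CRYAB (0.0547) and HSPB1 (-0.0323) did not. These r values describe where the genes lie and carry no test.

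Immediate early and stress genes were followed beside the members, since 5 of 8 fell with drip loss, by limma with adjustment over all probe sets, and 0 of 8 passed for fat area, also at an unadjusted p under 0.05. The transcription factors FOS and EGR1 had slopes of -0.491 ± 0.0778 and -0.417 ± 0.0669 per SD of drip loss (n = 207, adjusted p = 7.6e-06 and 9.5e-06), steeper than that of any member. DUSP1, a phosphatase of MAP kinases, had -0.273 ± 0.0392 (adjusted p = 4.8e-07), the transcription factor NFIL3 -0.244 ± 0.0595 (adjusted p = 0.00801) and the hypoxia factor HIF1A -0.111 ± 0.0291 (adjusted p = 0.0135). ATF4, a factor of the integrated stress response, rose by 0.0414 ± 0.0123 (adjusted p = 0.0297). DDIT3 and PPARGC1A had -0.141 and -0.267 and did not pass (adjusted p = 0.0586 and 0.0510).

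The members fell into different company among these genes. Of 100 pairs of a member with a reference gene or fibre type mean, adjusted together, NFIL3 with DNAJB4 was the closest (r = 0.625, rho = 0.636, 0.611 without the 2 most extreme animals, positive in 10 of 10 blocks). NFIL3 also followed BAG3 (r = 0.597, rho = 0.587, 0.580 without the 2 most extreme animals, 10 of 10 blocks) and HSPH1 (r = 0.541, rho = 0.537, 0.513 without the 2 most extreme animals, 10 of 10 blocks). All had an adjusted permutation p of 3.3e-05 for r and 3.1e-05 for rho. FOS and EGR1 followed DNAJB4 (r = 0.405 and 0.476, rho = 0.418 and 0.482, 0.397 and 0.465 without the 2 most extreme animals) and BAG3 (r = 0.363 and 0.440, rho = 0.360 and 0.417, 0.346 and 0.427), at the same adjusted p-values and with 10 of 10 blocks positive.

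The chaperonin genes had values nearer 0 with FOS, EGR1 and NFIL3. HSPE1 had r = 0.00126 with FOS, 0.00701 with EGR1 and -0.0134 with NFIL3 (rho = 0.00243, 0.00226 and -0.0452, adjusted permutation p = 0.986, 0.939 and 0.904). HSPD1 had r = 0.0312 with FOS and 0.131 with NFIL3 (rho = 0.0168 and 0.0918, adjusted p = 0.745 and 0.0921). HSPD1 followed HIF1A (r = 0.608, rho = 0.549, adjusted permutation p = 3.3e-05 for r, 0.581 without the 2 most extreme animals, 10 of 10 blocks). HIF1A passed with 9 of the 10 members, and the exception was HSPB1 (r = 0.0188, rho = -0.0450, adjusted p = 0.867). With the first 5 principal components removed, the r of NFIL3 with DNAJB4 was 0.244 and that of HIF1A with HSPD1 0.175. Those of FOS and EGR1 were then 0.00207 and -0.0493 with DNAJB4 and -0.0792 and -0.105 with BAG3.

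Fibre type means had r values of -0.287 to 0.104 with the members. The slow fibre mean (6 of 7 markers measured, averaging 13.0 to 13.8 across arrays) passed with 1 of 10 members, and the fast fibre mean (5 of 8 measured, 13.3 to 13.8) with 5, each with a negative r. The most negative was HSPD1 with the fast fibre mean (r = -0.287, rho = -0.207, adjusted permutation p = 0.000125 for r and 0.00619 for rho, -0.210 without the 2 most extreme animals, -0.158 without the low-correlation arrays). Of these 5 only HSPD1 also passed by rho, with adjusted permutation p-values of 0.0570 to 0.832 for the others. Without the low-correlation arrays r was -0.0312 for HSPH1, -0.0946 for DNAJB4, -0.190 for HSPE1 and -0.0390 for HSPA8. With the first 5 principal components removed, r with the slow fibre mean was positive for all 10 members, from 0.111 for HSPE1 to 0.404 for CRYAB. With the fast fibre mean it was then between -0.149 and 0.0813. In limma 0 of the 6 slow and 0 of the 5 fast fibre markers passed for either trait, and 1 fast fibre marker had an unadjusted p under 0.05, for drip loss.

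The wider chaperone network held 96 listed genes that are not members, of which 73 were measured. With drip loss 6 rose and 3 fell, by limma with adjustment over all probe sets, against 4.61% of all probe sets in either direction. That share includes dim probe sets, whereas each listed gene is read by its brightest. With adjustment within the set, 7.60% passed with 1 probe set a gene and 10.6% among probe sets above the median mean. The count of 9 calls was 0 with the blocks or 5 principal components as covariates and 2 without the low-correlation arrays. Negative slopes were found in 34 of 73, against 38.99% of all genes, with a median of 0.0022. At an unadjusted p under 0.05 there were 17 of 73, against 19.3% of all probe sets. With fat area 0 passed and 8 had an unadjusted p under 0.05, against 7.07% of all probe sets. Positive slopes on fat area were found in 44 of 73, against 46.8% of all genes, with a median of 0.00525.

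Among the regulators, HSF2, a heat shock factor that binds the same DNA element as HSF1, fell with drip loss by 0.158 ± 0.0387 per SD (adjusted p = 0.00830). HSBP1, which binds heat shock factor trimers and restrains them, rose by 0.0761 ± 0.0200 (adjusted p = 0.0131). HSF1, the main factor of the heat shock response, had -0.0247 and did not pass (adjusted p = 0.455). In the HSP70 system HSPA13 and ST13, an HSP70-interacting cochaperone, fell by 0.104 ± 0.0296 and by 0.0474 ± 0.0142 (adjusted p = 0.0230 and 0.0318). STUB1, the ubiquitin ligase that marks chaperone clients for degradation, rose by 0.0538 ± 0.0153 (adjusted p = 0.0232).

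The remaining calls were all rises. CDC37, which brings kinases to HSP90, had 0.0535 ± 0.0146 (adjusted p = 0.0177) and the HSP90 cochaperone NUDC 0.0552 ± 0.0130 (adjusted p = 0.00658). GRPEL1, the exchange factor of mitochondrial HSP70, had 0.0505 ± 0.0127 (adjusted p = 0.00959), and the prefoldin subunit PFDN6 had 0.0525 ± 0.0132 (adjusted p = 0.00936). The HSP90 cochaperones had 11 of 14 positive slopes and the mitochondrial chaperones 4 of 5, against 61.0% of all genes. Both lists thus included genes whose change with drip loss was opposite in sign to that of BAG3.

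The small heat shock proteins outside the group had 0 of 5 calls in limma, 2 unadjusted p-values under 0.05 and 4 negative slopes on drip loss. Over all genes 38.99% of the slopes on drip loss were negative. HSPB8, close to BAG3 and HSPB1 in its variation, had -0.0508 ± 0.0238 (adjusted p = 0.210), and HSPB2, the neighbour of CRYAB, had 0.00897 (adjusted p = 0.780). The J-domain proteins had 0 of 11 calls and 2 unadjusted p-values under 0.05, and DNAJA1, the closest companion of HSPH1, had -0.0360 ± 0.0429 (adjusted p = 0.701). The chaperones of the endoplasmic reticulum had 0 of 12 calls for either trait and 1 unadjusted p under 0.05, for fat area, where 11 of 12 slopes were negative with a median of -0.0138. The cytosolic chaperonin and prefoldin had 10 of 11 positive, with a median of 0.0126, of which 0 passed and 2 had an unadjusted p under 0.05. Over all genes 53.2% of the slopes on fat area were negative and 46.8% positive.

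Some of the closest companions of the members were outside these lists. KMT2E, which tracked DNAJB4, fell with drip loss by 0.190 ± 0.0510 (adjusted p = 0.0156). TNFRSF12A and TRAFD1, which tracked BAG3, had -0.108 ± 0.0360 and -0.113 ± 0.0434 and did not pass (adjusted p = 0.0597 and 0.112). HSP70.2 had -0.0626 ± 0.0333 (adjusted p = 0.287). On fat area the 18 closest companions had adjusted p-values of 0.394 or more.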

How the data were processed

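Each array gave 1 deposited column of log2 expression values per probe set, made by the authors with GCOS 1.1.1 and PLIER, per the submitters' processing notes. Scaling between arrays is not given in the sources used here, and the values were used as they stand. Array medians lay between 5.96 and 6.18, 1.43% of values sat at a floor of 4, and precision is set by how many arrays there are. Of 24123 probe sets 188 controls were left out. The array annotation gave 10069 probe sets 1 symbol, 198 several and 13668 none, and all 19 member probe sets matched the RefSeq gene table by gene number. A gene was represented by its probe set with the highest mean.

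Slopes came from lmFit and eBayes of limma 3.58.1 (R 4.3.3), two-sided, and the difference between traits from a contrast in a joint fit. Correlations used 100000 permutations in Python 3.11.15. Principal components came from numpy 2.4.6. Low-correlation arrays lay over 3 scaled MAD below the median. The named genes were all members, the 3 genes most like each, all called chaperone list genes and 8 reference genes. The members, lists and tests were chosen with earlier results of these data known. Alternatives, given in the closing section, changed the normalization, filter, probe set, covariates and arrays. The fits were tested on simulated data. P-values measure the spread between these animals, which the labels give as separate.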

Additional observations from a re-analysis of the deposited data

How the results depend on the processing

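No paired analysis was possible because all animals form 1 group. The count of member probe sets called for drip loss, 1 in all arrays, was 3 with the brighter probe sets, with 1 probe set a gene or with the adipocyte mean as a covariate, 2 without the 2 farthest animals, and 0 with the blocks, 5 principal components, or the blocks without the low-correlation arrays. The share of all that was tested was 10.6% with the brighter probe sets, 7.60% with 1 probe set a gene and 5.40% with the adipocyte mean. It was 4.23% without the 2 farthest animals, 0.623% with the blocks, 0.0543% with 5 components and 0.355% with the blocks without the low-correlation arrays. For fat area the count of member probe sets called was 1 with 5 components and 0 elsewhere. The difference between the traits lost its call (0) with the number series, the blocks, 5 components, normal scores, the 3' minus 5' signal, without the spike-in arrays, and without the low-correlation arrays, with or without the blocks. Chaperone list genes called for drip loss, 9 in all arrays, were 0 with the blocks (also without the low-correlation arrays) or 5 components, 2 without the low-correlation arrays and 5 with the 3' minus 5' signal, and for fat area 2 with 5 components. The median r of the members was 0.355 when each gene's probe sets were averaged and 0.393 to 0.528 otherwise. The cause of these changes was not tested.

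No slope that changed sign had passed in all arrays, though that of DNAJB4 on drip loss passed under 4 alternatives. With 5 components the drip loss slopes of DNAJB4 (0.0216), HSPA8 Ssc.16804.1.A1_at (0.00892), HSPB1 (0.00607), CRYAB Ssc.19588.2.A1_at (0.0404) and HSP90AA1 (Ssc.12191.1.A2_at 0.00445, Ssc.15662.1.S1_at -0.00659, Ssc.12191.1.A1_at 0.0236, Ssc.12191.3.A1_at 0.00269, Ssc.12191.2.A1_at -0.00517) did so, as did the difference between the traits for DNAJB4 (-0.00954). Without the low-correlation arrays and with the blocks, HSP90AA1 Ssc.15662.1.S1_at had -0.00279 for drip loss, and HSPA8 Ssc.19203.3.S1_at had -0.00486 for fat area. HSP90AA1 Ssc.12191.2.A1_at had -0.0117 for drip loss without those arrays and -0.0130 with the blocks besides, and for fat area 0.000189 with the blocks and 0.000272 without the spike-in arrays. HSPA8 Ssc.19203.2.S1_at had 0.00155 for drip loss without the spike-in arrays, and Ssc.19203.3.S1_at -0.00578 for fat area without the 2 farthest animals. For fat area HSP90AA1 Ssc.15662.1.S1_at had -0.00181 with 5 components, -0.00702 without the low-correlation arrays, -0.00445 with the Y-linked component and -0.00270 with the fibre type difference. CRYAB Ssc.19588.2.A1_at had -0.00947 with the number series, -0.0342 with the blocks, -0.00357 with 5 components, -0.00792 without the low-correlation arrays, -0.0274 with the blocks besides and -0.00283 with drip loss as a covariate.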
